A study of Mus musculus with 9 samples.

Results

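The cyclins, kinases and inhibitors that set the passage from G1 into S phase were examined in whole osteosarcoma tumors from genetically engineered mouse models (GEMMs). The group held 10 genes, chosen by name from the 55367 genes of the deposited count table: the cyclins Ccnd1, Ccnd2, Ccnd3, Ccne1 and Ccne2, the kinases Cdk4 and Cdk6, the inhibitors Cdkn1b and Cdkn2b, and Rb1. All 10 were found, and all 10 passed the filter on low counts. RNA-Seq was available for 9 tumors. The 4 p53-driven ones are named F187, F325, F331 and F368, and the 5 of the Myc knockin are M351, M408, M9, M624 and M664. The names M351, M9 and M664 were placed in the Myc-knockin group from their letter alone, and the other 6 from cell lines of the same names. The p53-driven tumors were labelled Col2.3-Cre/TrpP53fl/+, that is, Cre under the osteoblast-specific promoter Col2.3 and a single floxed Trp53 allele. The labels of the Myc-knockin tumors add to Cre and p53fl/+ the allele (LSL)-c-MycT58A, with a Lox-Stop-Lox cassette that Cre removes, so the Cre and the floxed Trp53 allele were common to both groups and the Cre-activated MycT58A allele was particular to the Myc knockin. The tumors arose spontaneously and were taken whole, so other cells than tumor cells could contribute RNA. The ages of these 9 mice were not given in the sources used here. According to the study, Myc-knockin mice reached sacrifice at a younger median age than the p53 model, so age and genotype cannot be told apart.

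In G1, growth signals raise the D-type cyclins, which activate the kinases CDK4 and CDK6 to phosphorylate the retinoblastoma protein RB. Phosphorylated RB releases the E2F transcription factors, which switch on Ccne1 and Ccne2 and the genes of DNA replication, and cyclin E with CDK2 phosphorylates RB further. The inhibitor p15 (Cdkn2b) blocks CDK4 and CDK6, and p27 (Cdkn1b) blocks cyclin E with CDK2. Loss of RB and gain of CDK4 are known from human osteosarcoma, and MYC is known to bind CACGTG, the E-box sequence.

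The 9 libraries held 2716322 to 17073285 counts. In F187, M351, M408 and M9, from 23.2% to 81.0% of the counts lay on 11 satellite-repeat genes, against at most 0.0242% in the other 5, and M9 kept the lowest number of counts outside them (672104). Expression is given in CPM, which relates each count to the size of its library. Relative to the counts outside satellites, the small nuclear RNA Rn7sk was at 5.33 and 9.32 CPM in M624 and M664 and at 8858 CPM or more in the other 7. Both are Myc-knockin libraries, and the other Myc-knockin libraries, M408, M351 and M9, were at 12444, 15437 and 17534 CPM. No p53-driven library was like the pair, so the pair's part in a difference between the groups cannot be told apart from that of the genotype. All other CPM values are scaled by edgeR's TMM method, and results that move most without these libraries are also given without them. Without the 4 libraries with satellite reads, M624 and M664 are the only Myc-knockin tumors left. Myc was 43.5 to 67.1 CPM in the p53-driven tumors and 144 to 1045 CPM in the Myc-knockin tumors, with no overlap (log2 fold change 3.41, edgeR adjusted p = 0.0217). Trp53 overlapped between the groups (log2 fold change 0.58, edgeR adjusted p = 0.569).

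The main question was which of these G1 genes differed between Myc-knockin and p53-driven tumors. Of the 10, Ccne1 was higher in the Myc-knockin tumors, and no gene of the group passed as lower. Ccne1 passed the test in all fits but those with library size as the only scaling or without F325, F331 or F368. Those fits called 136, 8, 6 and 5 genes in all. The median log2 fold change of the 10 was -0.18, against 0.14 over the 15365 genes tested. Over all genes tested, 5.27% passed the test, 2.26% as higher and 3% as lower, and with 1 of 10 called the count is a result on Ccne1 and not on the group. A gene was called at an edgeR adjusted p under 0.05 with a change of over 1.5-fold in either direction. Expression of Cdk4 was 2.80-fold higher by the ratio of means and did not pass (log2 fold change 1.49, edgeR adjusted p = 0.111). The other 8 had fold changes between -0.48 and 0.33 on the log2 scale, of which those of Ccnd1 and Cdkn2b turned positive with upper-quartile scaling and that of Cdkn2b also with library size alone.

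**Figure D1:**
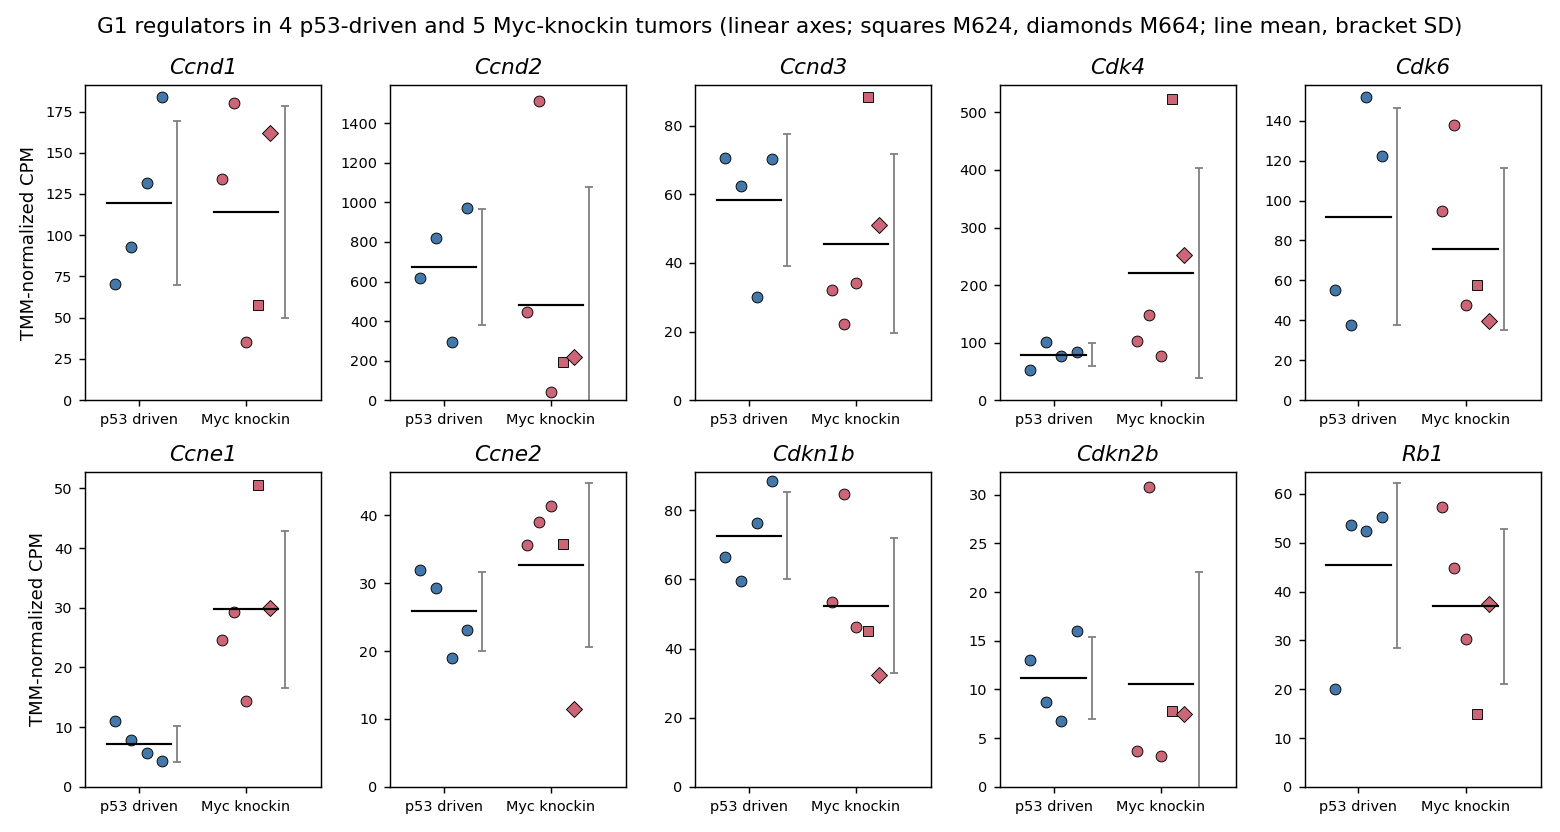
Each panel shows TMM-normalized CPM on a linear axis from 0 for 1 gene, with a point per tumor, a line at the group mean and a bracket of 1 SD that is cut at 0 for Ccnd2 and Cdkn2b. The points of the groups are separate for Ccne1, where the lowest Myc-knockin tumor was at 14.3 CPM and the highest p53-driven tumor at 11.1 CPM, and they overlap in the other 9 panels.

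Ccne1 encodes cyclin E1, the partner of CDK2 at the entry into S phase. The gene (ENSMUSG00000002068) lies on chromosome 7 of mm10 from 38097984 to 38107534, on the minus strand, and no other annotated gene shares its exons. Cdk4 (ENSMUSG00000006728) lies on chromosome 10 from 127063534 to 127067920, on the plus strand. The sequences upstream of these genes, which had the largest fold changes of the 10, are shown so that the E-box can be located. They come from RefSeq promoter windows on GRCm38.p6, which reach from 250 bases before to 50 bases after the RefSeq start, and are printed up to the annotated gene. Both run 5′ to 3′ on the strand of the gene, with each CACGTG in capitals:
Cdk4, chr10:127063285-127063533, plus strand: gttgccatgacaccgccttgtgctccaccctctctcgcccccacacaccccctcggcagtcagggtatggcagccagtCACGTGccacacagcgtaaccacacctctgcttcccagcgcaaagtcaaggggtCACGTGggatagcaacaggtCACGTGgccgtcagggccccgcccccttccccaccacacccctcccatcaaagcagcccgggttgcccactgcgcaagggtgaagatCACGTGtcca
Ccne1, chr7:38107535-38107740, minus strand: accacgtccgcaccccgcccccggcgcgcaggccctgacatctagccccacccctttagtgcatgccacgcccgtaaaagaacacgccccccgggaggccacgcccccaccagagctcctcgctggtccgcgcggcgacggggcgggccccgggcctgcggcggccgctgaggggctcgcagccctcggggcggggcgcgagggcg

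The Cdk4 window held 4 copies of CACGTG, starting 172, 118, 98 and 11 bases upstream of the RefSeq start, and the Ccne1 window held none. CACGTG reads the same on both strands. It was present at least once in 7.15% of all 32851 windows of the same length, and 8 windows held 4 copies or more (0.0243%). Windows were found for 6 of the 10 genes, 7 windows in all, which also covered Ccnd3, Cdk6, Cdkn1b and Cdkn2b. Among these, Cdk6 held 1 copy, 220 bases upstream, and the others none. The E2F motifs TTTNGCGC and TTTCCCGC, searched on both strands, were in 1.38% and 1.07% of all windows and in none of the 7. A match describes the letters in the window and was not tested as a site of binding.

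In the p53-driven tumors, Ccne1 was 11.1 CPM in F187, 7.78 in F325, 5.62 in F331 and 4.26 in F368. In the Myc-knockin tumors it was 24.6 CPM in M351, 29.3 in M408, 14.3 in M9, 50.5 in M624 and 29.9 in M664. All 5 Myc-knockin tumors lay above all 4 p53-driven tumors, and 13% of all genes tested had groups that did not overlap. Expression of Ccne1 was 29.7 ± 13.2 CPM (SD, n = 5) in Myc-knockin and 7.18 ± 2.97 CPM (SD, n = 4) in p53-driven tumors. This was a log2 fold change of 2.09 (standard error 0.42, edgeR adjusted p = 0.0266), with a 95% interval from 2.25-fold to 8.08-fold. The lowest Myc-knockin value rested on 18 counts in M9, of which 3.27 would be expected from genomic background, estimated on chemosensory receptor genes. With that background subtracted in every library, Ccne1 was still called.

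The size of the Ccne1 difference was between 1.79 and 2.78 on the log2 scale over the main fit and 21 alternatives. These count the main fit without its fold threshold, which has the same values. Its edgeR adjusted p was 0.0438 without M624 and M664 (log2 fold change 1.79) and 0.00870 without the 4 libraries with satellite reads (log2 fold change 2.78). In the latter fit M624 and M664 are the only Myc-knockin tumors, and 27.9% of all genes were called. The call was lost when any of 3 p53-driven tumors was left out, with an edgeR adjusted p of 0.0890 without F325, 0.107 without F331 and 0.117 without F368. These fits called 8, 6 and 5 genes in all, and the log2 fold change of Ccne1 in them was 2.15, 2.00 and 1.89. The call was also lost with library size as the only scaling (edgeR adjusted p = 0.142), a fit that called 136 genes in all. Over the alternatives other than leaving out single tumors, the adjusted p ran from 5.29e-05 with DESeq2 to 0.142. It was under 0.05 in 11 of 12, counting the main fit without its fold threshold, whose adjusted p is that of the main fit.

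**Figure D2:**
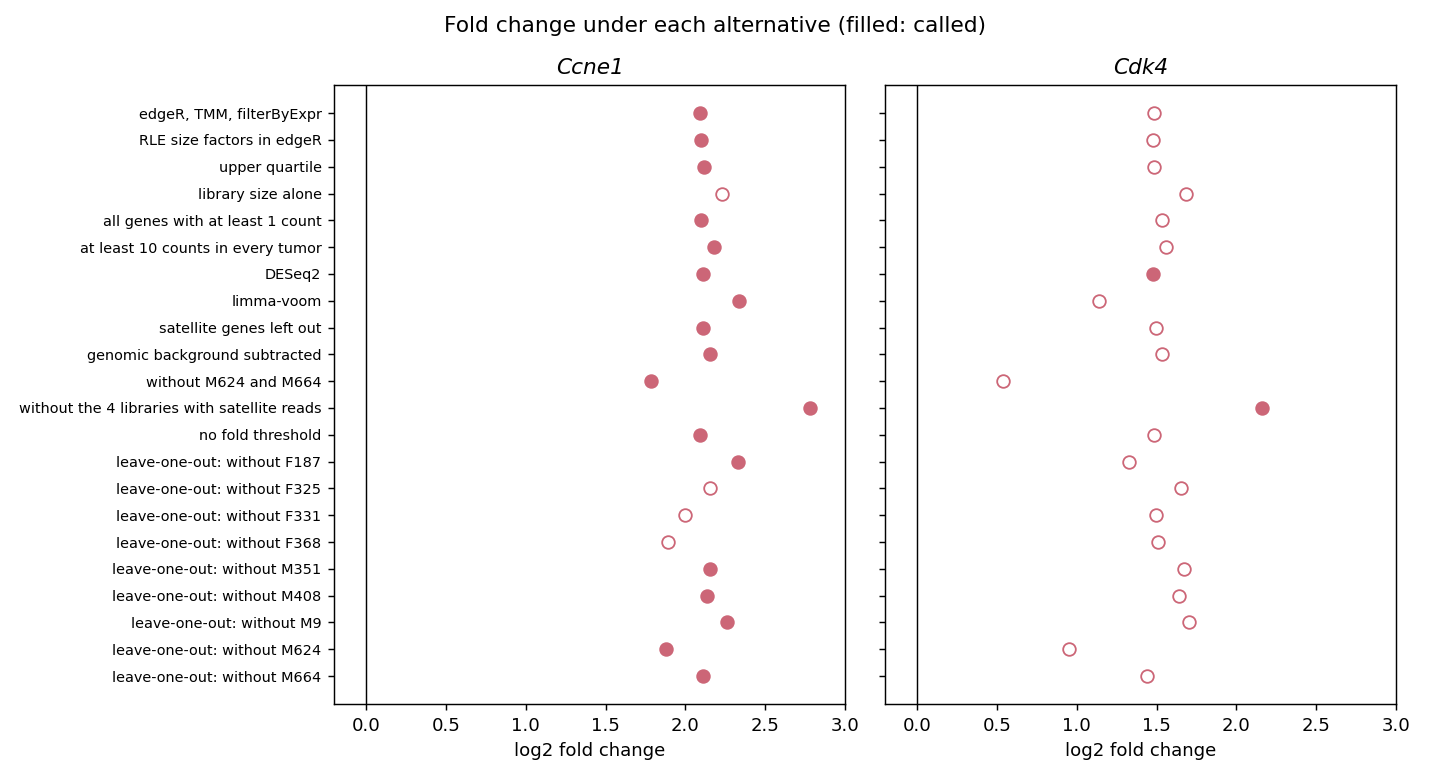
Log2 fold changes of Ccne1 and Cdk4 in Myc-knockin over p53-driven tumors are plotted for the main fit and each alternative, with filled points where the gene was called. Ccne1 stays between 1.79 and 2.78, and Cdk4 falls from 1.49 to 0.54 without M624 and M664.

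The other E-type cyclin, Ccne2, was spread over both groups. It ran from 19.0 CPM in F331 over 23.1 in F368 and 29.2 in F325 to 32.0 in F187. In M351, M408, M9 and M624 it lay between 35.7 and 41.4 CPM, above all p53-driven tumors, and in M664 it was 11.5 CPM, below all of them. Ccne2 had a log2 fold change of 0.33 (95% interval -0.48 to 1.14, edgeR adjusted p = 0.596). The opposite-strand gene Ints8 shares 609 bases, or 17.4%, of the exons of Ccne2. Mean Ints8 was 36.8 CPM in Myc-knockin and 51.8 CPM in p53-driven tumors (log2 fold change -0.51, edgeR adjusted p = 0.272). Reads from the shared stretch may belong to either gene, and their part in the Ccne2 values and ratios was not tested. Within the same library, the log2 ratio of Ccne2 to Ccne1 per kilobase of exon does not depend on how libraries are scaled. It was -0.28 ± 1.09 (SD, n = 5) in Myc-knockin and 1.51 ± 0.38 (SD, n = 4) in p53-driven tumors, a difference of -1.78. The two-sided exact permutation test gave p = 0.0159, the smallest p that 5 against 4 tumors allow, and an adjusted p of 0.0635 over the 4 ratios tested. The groups nearly met, with a ratio of 1.11 in M9 and 1.12 in F187. With genomic background subtracted, the two-sided exact permutation test gave p = 0.0317 (adjusted p = 0.127; range over all alternatives 0.0635 to 0.400). The difference was -1.08 without M624 and M664 and -2.96 without the 4 libraries with satellite reads, where M624 and M664 are the only Myc-knockin tumors.

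As a share of the counts per kilobase on both E-type cyclins, Ccne1 took 19.5% to 31.2% in the p53-driven tumors. It took 47.5% in M351, 49.7% in M408, 31.2% in M9, 64.9% in M624 and 77.3% in M664. Ccne2 therefore led in every p53-driven tumor, and Ccne1 led in M624 and M664. Reads from the stretch that Ccne2 shares with Ints8 were not set apart in these shares.

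Among the D-type cyclins, which answer to growth signals, none passed the test. Ccnd2 (cyclin D2) was the most abundant of the 3 per kilobase in the mean of each group, with 51.3 ± 63.2 CPM per kilobase (SD, n = 5) in Myc-knockin and 71.7 ± 31.2 (SD, n = 4) in p53-driven tumors. In CPM, it was 616, 821, 292 and 970 in F187, F325, F331 and F368. It was 447, 1513, 42.2, 191 and 217 CPM in M351, M408, M9, M624 and M664. The highest and the lowest of all 9 values were thus both in Myc-knockin tumors. Its log2 fold change of -0.48 had a 95% interval from -2.25 to 1.28 (edgeR adjusted p = 0.736), which spans a fall to 0.211 and a rise to 2.43 times the p53-driven level. Leaving out the 4 libraries with satellite reads gave -1.73 on the log2 scale (edgeR adjusted p = 0.0604; 0.0604 to 0.964 over the alternatives), and leaving out M408 alone gave -1.56. M9 had 53 counts of Ccnd2, of which 11.5 would be expected from background.

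Ccnd1 (cyclin D1) was 70.3, 92.8, 132 and 184 CPM in F187, F325, F331 and F368. It was 134, 180, 35.1, 57.8 and 162 CPM in M351, M408, M9, M624 and M664, and the groups overlapped over most of their range. Its log2 fold change was -0.07 (95% interval -1.12 to 0.98, edgeR adjusted p = 0.946). The opposite-strand gene LTO1 shares 1100 bases, or 23.4%, of the exons of Ccnd1. Whether counting used the strand was not given in the sources used here, so reads from such a stretch may belong to either gene. Ccnd3 (cyclin D3) was 29.9 to 70.7 CPM in the p53-driven tumors and 22.2 to 88.5 CPM in the Myc-knockin tumors, with the highest value in M624 (log2 fold change -0.34, 95% interval -1.25 to 0.57, edgeR adjusted p = 0.634). Without M624 and M664 it was -0.95, and without the 4 libraries with satellite reads 0.39. Its processed pseudogene Ccnd3-ps had at most 28 counts in any library.

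The D-type cyclins were also compared within libraries. The log2 ratio of Ccnd2 to Ccnd1 per kilobase was 1.46 ± 0.94 (SD, n = 4) in p53-driven and 0.44 ± 1.14 (SD, n = 5) in Myc-knockin tumors (two-sided exact permutation test, p = 0.175, adjusted p = 0.233). The difference of -1.01 was -0.77 without M624 and M664 and -1.16 without the 4 libraries with satellite reads. Ccnd2 took the largest share of the 3 in all 4 p53-driven tumors, from 49.7% to 76.5%. In the Myc-knockin tumors it led in M351, M408 and M624, and Ccnd1 led in M9 and M664. The ratio of Ccnd3 to Ccnd1 differed by -0.21 (two-sided exact permutation test, p = 0.810, adjusted p = 0.810).

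**Figure D3:**
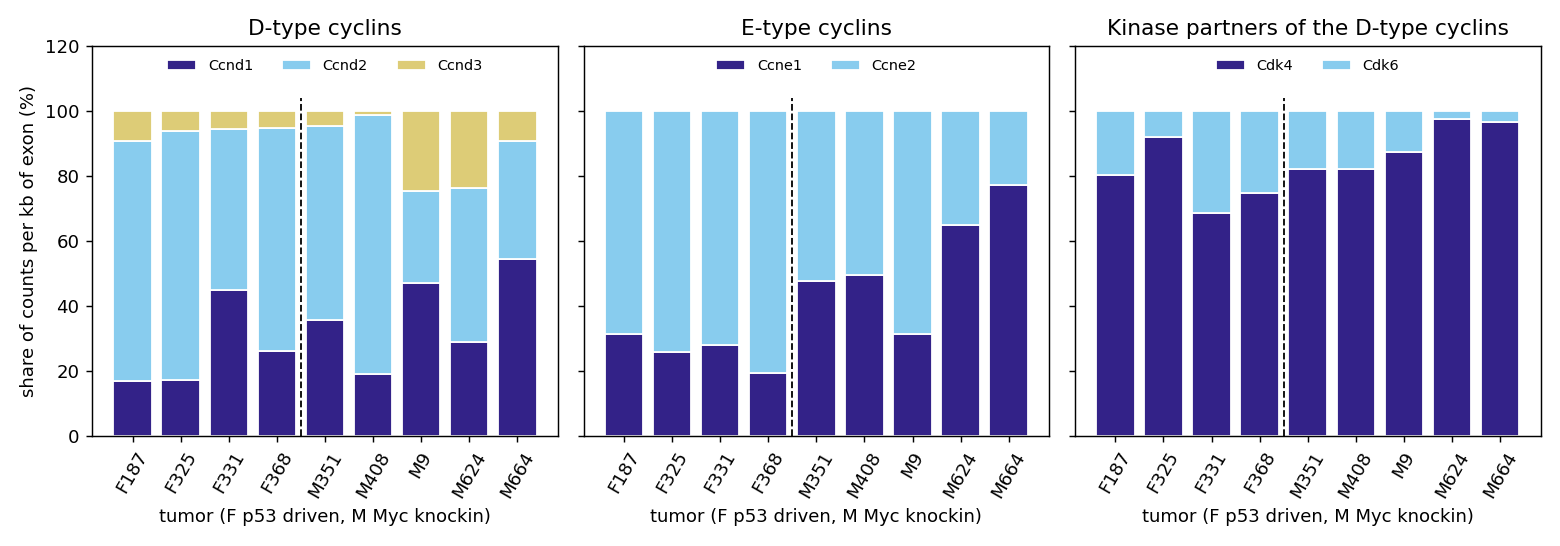
Stacked bars give, for each tumor, the percent of the counts per kilobase of exon taken by each D-type cyclin, each E-type cyclin, and Cdk4 or Cdk6, with the p53-driven tumors left of the dashed line. The Ccne1 part is at most 31.2% in the p53-driven tumors and reaches 77.3% in M664, while M9 stands level with F187.

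Cdk4 and Cdk6 encode the kinases that the D-type cyclins activate. Cdk4 was 52.5, 102, 77.1 and 84.2 CPM in F187, F325, F331 and F368. It was 102, 148, 76.5, 524 and 253 CPM in M351, M408, M9, M624 and M664. M9 lay below 3 of the p53-driven tumors, within their range. The mean was 221 ± 182 CPM (SD, n = 5) in Myc-knockin and 78.9 ± 20.4 CPM (SD, n = 4) in p53-driven tumors. Cdk4 had a log2 fold change of 1.49 (standard error 0.54), with an unadjusted edgeR p of 0.0183 and an adjusted p of 0.111.

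The 2 highest Cdk4 values came from M624 and M664, the libraries set apart by Rn7sk. Their mean was 388 CPM, against 109 CPM in the other 3 Myc-knockin tumors. Without the pair it changed to 0.54 on the log2 scale (edgeR adjusted p = 0.308), and without M624 alone it was 0.95. Cdk4 was called by DESeq2 (adjusted p = 0.0284) and by edgeR without the 4 libraries with satellite reads (log2 fold change 2.16, adjusted p = 0.0122), a fit in which M624 and M664 are the only Myc-knockin tumors. The opposite-strand gene Tspan31 shares 641 bases, or 19.7%, of the exons of Cdk4, and its own log2 fold change was -0.41 (edgeR adjusted p = 0.537).

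Cdk6 was 55.3, 37.6, 152 and 123 CPM in F187, F325, F331 and F368 and 39.9 to 138 CPM in the Myc-knockin tumors. It had the wider range in the p53-driven group, and the groups overlapped over most of it (log2 fold change -0.28, 95% interval -1.34 to 0.78, edgeR adjusted p = 0.745). Per kilobase, Cdk4 exceeded Cdk6 in each of the 9 tumors, taking 68.6% to 92.1% of the sum in p53-driven and 82.2% to 97.5% in Myc-knockin tumors. The log2 ratio of Cdk4 to Cdk6 differed by 1.38 (two-sided exact permutation test, p = 0.175, adjusted p = 0.233). This difference was 0.33 without M624 and M664, 0.93 without M624 alone and 2.95 without the 4 libraries with satellite reads.

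Rb1 encodes RB, the substrate of these kinases. It was 53.6, 52.5 and 55.2 CPM in F325, F331 and F368 and 20.1 CPM in F187. The Myc-knockin tumors ran from 15.0 CPM in M624 to 57.2 CPM in M351, around the p53-driven range on both sides. Rb1 had a log2 fold change of -0.31 (95% interval -1.20 to 0.58, edgeR adjusted p = 0.662). Each tumor had counts of Rb1, and gene counts do not show whether a transcript is complete. On the opposite strand, Rcbtb2 and Lpar6 share 8.11% and 6.78% of the exons of Rb1.

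The inhibitor Cdkn1b was 66.4, 59.7, 76.5 and 88.4 CPM in F187, F325, F331 and F368. It was 53.6, 84.6, 46.2, 45.0 and 32.5 CPM in M351, M408, M9, M624 and M664, so that 4 of the 5 Myc-knockin tumors lay below all p53-driven tumors and M408 lay among them. Its log2 fold change of -0.47 (95% interval -1.13 to 0.18) did not pass the test (edgeR adjusted p = 0.333). It was negative in all 22 fits, from -0.93 to -0.16, counting the main fit both with and without its fold threshold.

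Cdkn2b, which blocks CDK4 and CDK6, was 13.0, 8.71, 6.75 and 16.0 CPM in F187, F325, F331 and F368. It was 3.69, 30.8, 3.19, 7.77 and 7.51 CPM in M351, M408, M9, M624 and M664, with M408 above all other tumors. Cdkn2b had a log2 fold change of -0.02 (95% interval -1.39 to 1.34, edgeR adjusted p = 0.986). M351 and M9 had 6 and 4 counts, so their values carry little precision, and 3 counts correspond to 1.85 and 2.39 CPM in these libraries.

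**Figure D4:**
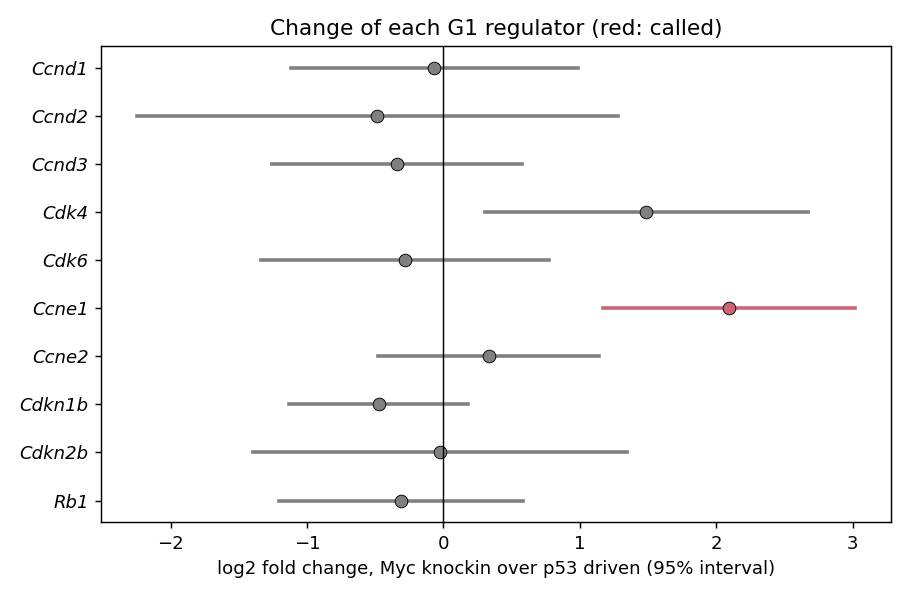
Points are log2 fold changes of the 10 genes in Myc-knockin over p53-driven tumors from edgeR, with 95% intervals not adjusted for the number of genes, and red marks the called gene. Ccne1 is at 2.09 with an interval from 1.17 to 3.01, Cdk4 is at 1.49, and the intervals of the other 8 include 0.

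The 10 genes varied more among Myc-knockin than among p53-driven tumors in most cases. The highest value was a larger multiple of the lowest in the Myc-knockin group for 9 of 10 genes, Cdk6 being the exception. For Ccnd2 these multiples were 35.8 in Myc-knockin and 3.33 in p53-driven tumors, and for Cdkn2b they were 9.66 and 2.38. The Myc-knockin group held 1 tumor more, and the difference in spread was not tested. Per kilobase, the mean level of Ccne1 was the lowest of the 10 in the p53-driven tumors (1.60 to 4.15 CPM per kilobase), and its range met that of the next, Cdk6 (2.69 to 10.9) and Ccnd3 (3.41 to 8.06). In the Myc-knockin tumors Ccne1 (11.2 ± 4.95 CPM per kilobase, SD, n = 5) stood beside Cdkn1b (11.5 ± 4.29, SD, n = 5) and Ccne2 (9.36 ± 3.45, SD, n = 5). Cdk4 had the highest mean there (67.9 ± 56.1, SD, n = 5), and did not differ from Ccnd2 beyond the spread.

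The other genes of the G1 to S pathway were read from the same fit in 7 lists. The counts and medians of the lists stand against 2.26% of all genes called higher, 3% called lower, 13% without overlap and a median of 0.14. The 15 E2F-regulated genes of DNA replication and nucleotide synthesis all had positive fold changes, as they did in each alternative, with a median of 1.28, and 2 of the 15 were called. Mcm5 and Mcm7, subunits of the replicative helicase, were 66.7 ± 38.7 and 89.4 ± 62.1 CPM (SD, n = 5) in Myc-knockin and 18.3 ± 6.59 and 24.5 ± 7.76 CPM (SD, n = 4) in p53-driven tumors. Their log2 fold changes were 1.89 and 1.88 (edgeR adjusted p = 0.0347 and 0.0452), and neither gene's groups overlapped. Without M624 and M664 the list's median was 0.86 with 1 gene called, without the 4 libraries with satellite reads it was 2.01 with 11 called in a fit that called 27.9% of all genes, and with library size alone it was 1.44 with 0 called, a fit that called 136 genes in all and had an unadjusted p under 0.05 for 2520. DESeq2 called 11 of the 15 and limma-voom 9, where 17.2% and 19.4% of all genes were called.

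Of the 10 E2F and DP factors, 9 had positive fold changes with a median of 0.92, and Tfdp1 was called. Tfdp1, the DP1 partner with which E2F proteins bind DNA, was 74.1 to 167 CPM in Myc-knockin and 30.0 to 49.4 CPM in p53-driven tumors (log2 fold change 1.49, edgeR adjusted p = 0.0288). Of the 2 other pocket proteins, which are relatives of RB, none was called by any of the fits. Rbl2 was 16.3 to 31.9 CPM in Myc-knockin and 32.0 to 44.0 CPM in p53-driven tumors (log2 fold change -0.52, edgeR adjusted p = 0.228). None of the 6 genes of the MuvB complex, which joins pocket proteins or MYB to cell cycle promoters, was called in the main edgeR fit. Its member with the smallest p was Mybl2 (log2 fold change 2.37, edgeR adjusted p = 0.0606), and it or another of the 6 was called in some alternatives, as by edgeR with upper-quartile scaling (1 of 6) and with at least 10 counts in every tumor (2 of the 4 tested). The upper-quartile fit called 6.32% of all genes tested, and the fit with the stricter count filter called 14.2%. DESeq2 called 2 of the 6 and limma-voom 1, fits that called 17.2% and 19.4% of all genes.

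Among 8 later cyclins, their kinases and the phosphatase Cdc25a, Ccnb1 was called. Ccnb1 encodes cyclin B1, which drives entry into mitosis with CDK1, and was 13.5 to 82.5 CPM in Myc-knockin and 5.35 to 11.5 CPM in p53-driven tumors (log2 fold change 2.13, edgeR adjusted p = 0.0400). Of the 8, 7 had positive fold changes (median 0.99). Of the 5 other CDK inhibitors, Cdkn1c was called, which encodes p57. It was 0.519 to 4.74 CPM in p53-driven and 3.98 to 25.5 CPM in Myc-knockin tumors, so that M9 lay within the p53-driven range (log2 fold change 2.99, edgeR adjusted p = 0.0411). Of the 5, 2 had positive fold changes and 3 had negative (median -0.02).

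The list of 11 genes that control the turnover of G1 regulators had 2 genes called higher and 1 lower, with a median of 0.03. Cks1b, the cofactor with which SKP2 targets p27, was 55.1 ± 33.2 CPM (SD, n = 5) in Myc-knockin and 13.7 ± 1.09 CPM (SD, n = 4) in p53-driven tumors (log2 fold change 2.02, edgeR adjusted p = 0.0308). Fbxo31, a substrate receptor of SCF ubiquitin ligases, was 31.0 ± 13.4 CPM (SD, n = 5) and 10.7 ± 1.54 CPM (SD, n = 4) in the same order (log2 fold change 1.55, edgeR adjusted p = 0.0392). Cul1, the scaffold of the SCF ubiquitin ligases, was lower: 109 ± 6.15 CPM (SD, n = 5) in Myc-knockin and 222 ± 22.8 CPM (SD, n = 4) in p53-driven tumors (log2 fold change -1.03, edgeR adjusted p = 0.0328). The groups did not overlap for any of these 3. Skp2 itself was not called (log2 fold change -0.16, edgeR adjusted p = 0.780), a gene named after its value was seen.

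**Figure D5:**
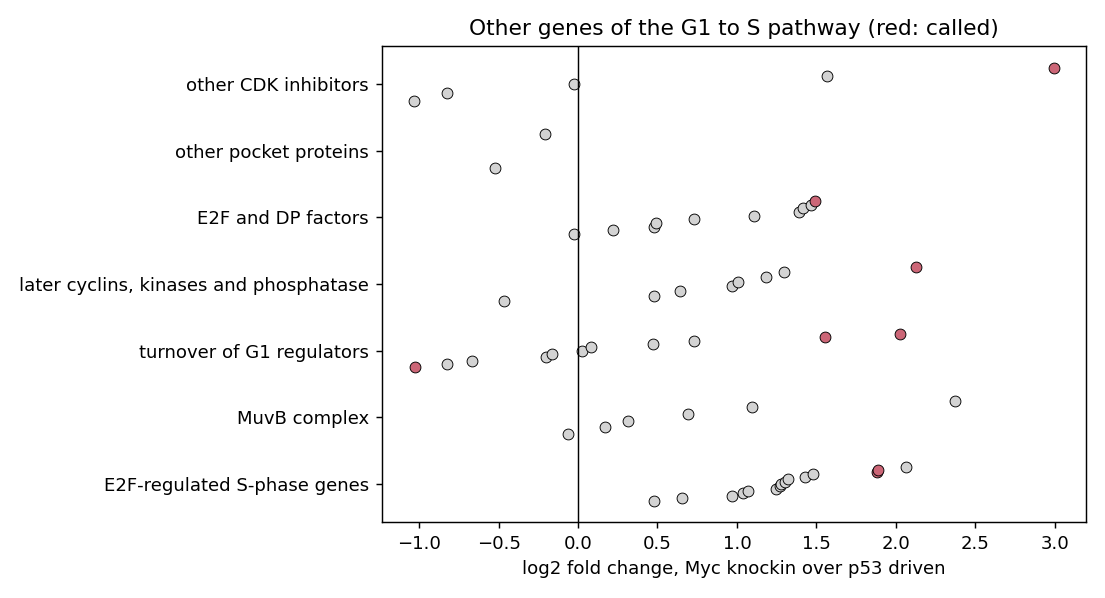
Each point is the log2 fold change of 1 gene in Myc-knockin over p53-driven tumors, arranged by list and red where called. All 15 E2F-regulated S-phase genes lie right of 0 with a median of 1.28, and the genes called are Cdkn1c, Tfdp1, Ccnb1, Cks1b, Fbxo31, Mcm5 and Mcm7 as higher and Cul1 as lower.

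The calls of these 8 pathway genes depended on single tumors, as did the number of genes called in all. With each tumor left out in turn, Tfdp1, Cks1b and Mcm5 were called in 5 of 9 fits, Cdkn1c, Ccnb1, Cul1 and Mcm7 in 3 and Fbxo31 in 2. None of the 8 was called without F325, F331 or F368, fits that called 8, 6 and 5 genes in all. Without F187, a fit that called 335 genes, Cdkn1c was called and the others of the 8 were not. Over all genes, the fits without 1 tumor called from 0.0292% without F368 to 10.4% without M9. Without M624 and M664, Tfdp1, Cks1b and Mcm5 were called, in a fit that called 4.61% of all genes. The directions of all 8 genes held in all fits made.

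The summed markers of osteoclasts, macrophages and the osteoblast lineage were lower in each Myc-knockin tumor than in any p53-driven tumor. The osteoblast lineage is that of the Col2.3 promoter. The 8 osteoclast markers summed to 124 to 2570 CPM in Myc-knockin and 2716 to 14151 CPM in p53-driven tumors, and 6 of 8 were called lower. For the markers not called, Acp5 and Mmp9, the groups overlapped. The 8 macrophage markers summed to 155 to 499 and 669 to 1208 CPM in the same order, with 3 of 8 called lower, 6 fold changes negative and 2 positive (Fcgr1 0.65 and C1qa 0.17, log2). Against this, 3% of all genes were called lower. The 8 osteoblast lineage markers summed to 3610 to 41254 CPM in Myc-knockin and 65016 to 141076 CPM in p53-driven tumors, with all 8 fold changes negative and 1 called. Col1a1 and Col1a2 together made up most of this sum in each tumor. The groups did not overlap for 4 of the 8, against 13% of all genes, and they overlapped for Sp7, Alpl, Ibsp and Spp1. M664 lay within the p53-driven range for all of these overlapping markers. Among these 3 lists, Bglap and Dcstamp were at 0 in M408, and every other marker had counts in every tumor. In whole tumors, fewer cells of a type and less RNA per cell cannot be told apart. The part of these shifts in the results for Ccne1, Cdk4 and the pathway genes was not tested.

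The remaining marker lists had no gene called. The 8 endothelial markers summed to 90.1 to 484 CPM in Myc-knockin and 345 to 481 CPM in p53-driven tumors. Cartilage markers, 7 of 8 tested, summed to 148 to 466 and 611 to 4176 CPM, and the 8 skeletal muscle markers to 8.46 to 6976 and 141 to 13632 CPM. Of the lymphocyte markers 2 of 8 were tested, with sums of 5.41 to 44.6 and 6.69 to 23.3 CPM. Of the erythroid markers 2 of 8 were tested, with sums of 23.4 to 783 and 6.69 to 21.8 CPM. The globin gene Hba-a1 was at 102 and 388 CPM in M624 and M664 and at 0 in the other 7 libraries, so this pair also differed from the rest in a red cell transcript.

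For each of the 10 genes, the gene whose log2 CPM followed it most closely over the 9 tumors was sought among 9529 genes with a mean of at least 10 CPM. Tumors of both groups and libraries of different depth were pooled here, so the coefficients describe these libraries and carry no test. Ccne1 was most like Ruvbl1 (Pearson r = 0.976, Spearman rho = 0.983) and Cdk4 most like Rae1 (r = 0.985, rho = 0.867). The D-type cyclins Ccnd1, Ccnd2 and Ccnd3 were most like Snx2 (r = 0.942), Usp24 (r = 0.957) and Ppp2r5d (r = 0.996). Ccne2 was most like Dzip3 (r = 0.937), Cdk6 most like Krit1 (r = 0.929) and Rb1 most like Asb4 (r = 0.933). The inhibitors Cdkn1b and Cdkn2b were most like Marchf7 (r = 0.974) and Tspan9 (r = 0.938).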

How the data were processed

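According to the study, whole tumors of p53-driven and Myc-knockin mice, here 4 and 5, were sequenced as paired-end, stranded, oligo-dT-enriched RNA. Rn7sk differed widely between the libraries, and whether all 9 were prepared alike was not tested. The authors trimmed reads with Trim Galore, mapped them with STAR to mm10 and deposited unnormalized featureCounts counts per gene. The strand setting was not given in the sources used here. Columns carry tumor names only: 6 of these names appear in the study's supporting data as cell lines of a genotype, not as sequenced tumors, and M351, M9 and M664 were taken as Myc knockin from the letter M. No column was tied to a numbered sample, so tumors served only as members of their group. Each p value weighs the difference between the groups against the variation among these tumors, which includes that of their libraries.

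Counts were tested with edgeR 4.0.16 (R 4.3.3; TMM, filterByExpr with a minimum count of 10, glmQLFit and glmQLFTest) and Benjamini-Hochberg adjustment over 15365 genes. This kept the study's thresholds and replaced its DESeq2, which was run as version 1.42.0 among the alternatives, with limma 3.58.1 for limma-voom. Within-library ratios added 0.5 counts, and exact tests used all 126 arrangements in Python 3.11.15 with scipy 1.17.1. Exon lengths and overlaps came from the GENCODE annotation of the same build, which held 55111 of 55367 identifiers. Scripts were tested on simulated data. A floor of 3 counts equals 0.114 to 2.39 CPM and covers counting error only. The satellite and background values describe satellite-repeat and genomic reads in each library. Named pathway genes are those called, at most 4 a list by smallest p, or, where none was called, the 1 with the smallest p. The 10 genes, the lists, the tests and the alternatives were chosen with earlier results of these data known. Protein sequences and other promoter windows were not used here.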

Additional observations from a re-analysis of the deposited data

Results flagged for a closer look

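In 28 groups of 4 or 5 values examined, 1 tumor lay far from the others of its group by Dixon's criterion in 4 cases, and chance alone gives about 1 in 20. Ccnd2 was 1513 CPM in M408, against at most 447 CPM in the other Myc-knockin tumors. Cdkn2b was 30.8 CPM in the same tumor, M408, against at most 7.77 CPM in the others. Ccne2 was 11.5 CPM in M664, while the other Myc-knockin tumors had at least 35.7 CPM. Rb1 was 20.1 CPM in F187, while the other p53-driven tumors had at least 52.5 CPM. M408 and F187 are among the libraries with satellite reads, and M664 is in the pair low in Rn7sk. The part of these library differences in the 4 values was not tested.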

How the results depend on the processing

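Counts of called genes depended most on the fit: 809 in all, 136 with library size alone, 494 with every gene of at least 1 count, 1316 with at least 10 counts in every tumor, 2646 with DESeq2, 2977 with limma-voom and 4595 without the 4 libraries with satellite reads. Leaving out 1 tumor gave 5 to 1588, with 5, 6 and 8 without F368, F331 and F325, 335, 371 and 375 without F187, M351 and M624, and 1588 without M9. The cause was not tested. The higher share of the calls was 43.0%, and 64.5% with upper-quartile scaling, 59.7% with at least 10 counts in every tumor, 58.0% with DESeq2, 56.5% without the 4 libraries, 54.6% after background subtraction and 58.1% without M9. It was 34.3% with limma-voom, 36.8% with library size alone, 25% without F325 and 0% without F331 or F368. The median log2 fold change of all genes was 0.14 and was 0.03 with library size alone, 0.97 with every gene of at least 1 count, -0.08 with limma-voom and -0.0029 without the 4 libraries. Of the 10 G1 genes, 0 were called with library size alone, 2 with DESeq2 and 2 without the 4 libraries, and 0 to 1 with 1 tumor left out. No log2 fold change or ratio that changed sign passed its test. Ccnd1 was 0.027 with upper-quartile scaling, 0.045 with at least 10 counts in every tumor, 0.027 after background subtraction, 0.047 without M624 and M664, and -0.27 to 0.19 with 1 tumor left out. Without M624 and M664, Ccnd2 was 0.080, Cdk6 0.11, Rb1 0.019 and Cdkn2b 0.41. Cdk6 was -0.60 to 0.068 with 1 tumor left out. Cdkn2b was 0.0077 with upper-quartile scaling, 0.10 with library size alone and -0.90 to 0.19 with 1 tumor left out, and it was not tested with at least 10 counts in every tumor. Ccnd3 was 0.39, and the Ccnd3 to Ccnd1 ratio difference 0.84, without the 4 libraries. Without these, Cdk6 was -1.08 and Rb1 -1.01. The Ccnd3 to Ccnd1 ratio difference was -0.67 to 0.23 with 1 tumor left out. Ccne2, Cdk4 and Cdkn1b kept their sign in every fit. With 3 against 4 tumors the smallest exact p is 0.0571, and with 2 against 3 it is 0.200, so the ratios could not pass there. No paired analysis was possible because the columns carry no replicate numbers.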
